A study of Mus musculus with 50 samples.

Results

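Interferon-stimulated genes are the genes that cells turn on when an interferon binds its receptor. The set described here holds 45 mouse genes known to be induced by interferons, chosen by symbol, and every row of the count table whose Ensembl identifier maps to one of these symbols was taken. All 45 were found among the 21647 genes listed, all 45 were among the 13294 genes that passed the filter on low counts, and 0 had a mean below 1 CPM (counts scaled to the library size) in every group. They comprise 7 immunity-related and guanylate-binding GTPases (Iigp1, Ifi47, Igtp, Irgm1, Gbp2, Gbp3 and Gbp7) and 38 others, among them the Ifit and Oas families, nucleic acid sensors, transcription factors, the Isg15 system, Schlafens and antiviral effectors.

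Type I interferons act through the receptor chains Ifnar1 and Ifnar2 and the kinases Jak1 and Tyk2, which lead a complex that holds Stat2 and Irf9 to the interferon-stimulated response element (ISRE) of promoters. Interferon gamma acts through Ifngr1 and Ifngr2 and on the gamma-activated site (GAS) of promoters, and it is the main inducer of the GTPases. Activated CD8+ T cells make interferon gamma themselves, while resting T cells hold a low, continuous level of interferon-stimulated transcripts.

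The libraries came from CD8+ T cells of 10-week-old knockout (KO) and wild-type (WT) mice, whose background is labelled C567BL/6J, with 5 mice per genotype. The cells were pulled from spleen with magnetic beads against CD8a, a chain that some dendritic cells and immature thymocytes also display. They were activated on coated anti-CD3e with soluble anti-CD28, at 2 µg/ml each, for 0, 2, 6, 12 or 24 hours (0h to 24h). Each mouse gave 1 library per time, so that the 10 groups of 5 make 50 libraries, and mRNA was read as 50 nt single-end reads. All groups share the isolation, and all later groups share the activation. No interferon was added according to the labels.

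Library totals ran from 9571625 to 31293872 counts, with a median of 23548632. WT mice 1 and 4 stood apart at every time. At 0h the summed level of 5 immature thymocyte markers (Rag1, Rag2, Dntt, Ptcra and Arpp21) was 8.37 to 75 CPM in KO mice. It ranged between 1150 and 1530 CPM for WT mice 1 and 4 but only between 8.79 and 32.1 CPM for the remaining WT mice. The sum of 8 memory and effector CD8 T cell markers was 1190 to 2530 CPM in KO mice, between 93.2 and 276 CPM for WT mice 1 and 4 and between 945 and 2240 CPM for the remaining WT mice. The defining CD8 T cell markers (Cd8a, Cd8b1, Cd3e, Cd3d, Cd3g and Trac) were all present, with a sum at 0h of 4980 to 7060 CPM in KO mice and 2060 to 15800 CPM in WT mice. At 24h the thymocyte sum was still between 32.9 and 172 CPM for WT mice 1 and 4, with 0.885 to 1.32 CPM for the remaining WT mice. The highest CD8 T cell sum was that of WT mouse 3 at 0h, the library with the smallest TMM scaling factor (0.783). The main counts of calls and most tests of single members are therefore given with all 50 libraries and without WT mice 1 and 4. The summed markers of plasmacytoid dendritic cells, a main source of type I interferon, were 94.9 to 270 CPM in KO mice and 72.1 to 300 CPM in WT mice at 0h. Most of this sum was Ccr9, with a mean of 154 CPM in KO mice and 144 CPM in WT mice. Siglech had only 0.229 and 0.288 CPM, and Klk1 0.0083 and 0 CPM, so the sum is no measure of these cells. The summed markers of conventional dendritic cells at 0h were 10.8 to 40.9 CPM in KO mice and 5.97 to 11.9 CPM in WT mice, and those of macrophages and monocytes 18 to 41.6 CPM in KO mice and 13.4 to 26.1 CPM in WT mice. Those of B cells were 66.6 to 322 CPM in KO mice and 6.29 to 216 CPM in WT mice, and those of NK cells 3.76 to 10.6 CPM in KO mice and 0.171 to 7.31 CPM in WT mice. The part of these cells in the results was not tested. In bulk samples, fewer cells of a type and less RNA per cell cannot be told apart.

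The promoters of 5 members that the results turn on are shown to let the response elements be seen beside the values. They are the 180 bases before the start site in GRCm38.p6, from RefSeq, written 5′ to 3′ on the gene's own strand, with ISRE matches in capitals. An ISRE match is GAAA, any 2 bases and GAAA again, on either strand, so that a match to the other strand reads TTTC, 2 bases and TTTC, and a GAS match is TTCNNNGAA, which reads alike on both strands. Oas1a makes a sensor of double-stranded RNA and lies at chr5:120907526-120907705, minus strand. Ifit3 makes an antiviral protein of the Ifit family and lies at chr19:34583349-34583528, plus strand. Ifi44 lies at chr3:151749911-151750090, minus strand. Gbp2, a guanylate-binding GTPase, lies at chr3:142620483-142620662, plus strand. Irgm1, a regulator of the immunity-related GTPases, lies at chr11:48871421-48871600, minus strand.
Oas1a: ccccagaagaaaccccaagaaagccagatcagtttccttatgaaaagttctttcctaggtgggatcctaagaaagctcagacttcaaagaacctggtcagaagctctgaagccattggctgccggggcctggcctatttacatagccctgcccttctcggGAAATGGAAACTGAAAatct
Ifit3: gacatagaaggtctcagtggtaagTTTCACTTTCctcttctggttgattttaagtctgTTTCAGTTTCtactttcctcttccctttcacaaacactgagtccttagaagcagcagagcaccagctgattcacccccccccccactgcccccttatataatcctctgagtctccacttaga
Ifi44: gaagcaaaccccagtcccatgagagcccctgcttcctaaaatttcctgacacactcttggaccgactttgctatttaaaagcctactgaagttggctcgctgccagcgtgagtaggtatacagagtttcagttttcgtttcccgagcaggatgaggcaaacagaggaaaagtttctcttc
Gbp2: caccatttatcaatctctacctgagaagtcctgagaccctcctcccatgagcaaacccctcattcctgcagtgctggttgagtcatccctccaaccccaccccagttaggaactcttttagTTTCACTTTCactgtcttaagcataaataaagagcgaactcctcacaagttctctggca
Irgm1: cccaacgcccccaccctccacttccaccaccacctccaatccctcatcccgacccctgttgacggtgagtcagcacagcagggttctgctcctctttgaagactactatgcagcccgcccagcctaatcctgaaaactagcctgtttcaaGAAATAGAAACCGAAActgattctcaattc
Oas1a held overlapping ISRE matches that start 20 and 14 bases before the start site, and Irgm1 held overlapping ones at 30 and 24 bases. Ifit3 held separate matches at 156 and 122 bases, and Gbp2 held a match at 59 bases. Ifi44, the member with the largest difference between the genotypes at 2h, held no match to this fixed pattern. Its printed bases do hold the stretch tttcagttttcgtttc, where TTTC recurs at spacings other than 2 bases, which the pattern does not count. The lack of a match is thus not the lack of a response element. Of the 45 members, 34 had an entry in the table, with 41 promoters of 300 bases (250 before and 50 after the start). In these windows 18 of the 34 members held an ISRE match and 8 held a GAS match. This was 46.3% of the members' promoters for the ISRE, against 3.44% of all 32851 promoters, and 19.5% against 8.3% for the GAS. Among the GTPases 5 of 6 held an ISRE match, and among the other members 13 of 28. Matches of the ISRE overlapped each other in 5 members, an ISRE and a GAS match overlapped in 1 (Bst2), 4 members held both motifs and 12 held neither. A match is a description of letters and not a site of binding, and nothing about the factors follows from these counts. The 11 members with no entry were Iigp1, Oas2, Dhx58, Zbp1, Usp18, Parp9, Parp14, Mx1, Ifi27l2a, Rtp4 and Tor3a.

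A part of the interferon-stimulated genes was higher in KO cells before activation and at 2h, and with all libraries few were called at later times. At 0h 11 of the 45 members were called higher in KO mice and 0 lower, and at 2h 19 were called higher and 0 lower. At 6h 3 were higher and 0 lower, at 12h 2 were higher and 2 lower, and at 24h 0 were called in either direction. A call is a Benjamini-Hochberg adjusted p under 0.05 over all 13294 tested genes in edgeR's quasi-likelihood test. Over all tested genes, the share called higher in KO mice was 2.34%, 2.9%, 2.53%, 5.54% and 0.00752% for 0h, 2h, 6h, 12h and 24h. The share called lower was 5.59%, 8.9%, 7.59%, 7.55% and 0.0376% for 0h, 2h, 6h, 12h and 24h. The members' counts at 0h and 2h thus lay far above the background of higher calls, that at 6h rests on 3 genes, and that at 12h was no larger than the background. The median log2 difference of the members was 0.77, 0.90, 0.35, -0.33 and -0.26 for 0h, 2h, 6h, 12h and 24h, against -0.15, -0.07, -0.04, -0.10 and 0.00 over all genes.

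Without WT mice 1 and 4, 11 members were called higher and 1 lower at 0h, 10 higher and 0 lower at 2h, 7 higher and 0 lower at 6h, 11 higher and 1 lower at 12h, and 0 at 24h. The shares of all genes called higher were then 8.9%, 1.86%, 2.31%, 13.9% and 0.0377% for 0h, 2h, 6h, 12h and 24h. The shares called lower were 13.5%, 2.24%, 1.85%, 9.03% and 0.00755% for 0h, 2h, 6h, 12h and 24h. The median difference of the members was 0.29, 0.64, 0.41, 0.17 and -0.06 for 0h, 2h, 6h, 12h and 24h. Of the 11 members called at 0h with all libraries, 9 were called in the same direction without these mice, and at 2h 10 of the 19 were. The share of members called higher was thus above the background at 0h, 2h, 6h and 12h when these mice were left out.

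Single mice also moved these counts. At 0h leaving out any 1 KO mouse, or WT mouse 1 or WT mouse 4, left 5 or 6 of the 11 calls. At 2h 4 calls remained without WT mouse 4, 5 without KO mouse 1, 6 without KO mouse 5 and 11 without KO mouse 2, 3 or 4 or WT mouse 1. At 6h 0 remained without KO mouse 1 or KO mouse 4, and 1 without KO mouse 3, KO mouse 5, WT mouse 1 or WT mouse 4. At 12h 1 remained without KO mouse 1, 3, 4 or 5 or WT mouse 4, 2 remained without KO mouse 2, and 10 were called without WT mouse 3. The calls over all genes fell in the same fits. At 2h they were 0.763% of all genes without WT mouse 4, 1.7% without KO mouse 1 and 3.26% without KO mouse 5, against 11.8% with all libraries. At 0h they were 1.2% without KO mouse 1 and 1.83% without WT mouse 4, against 7.93%, and at 6h 0.284% without KO mouse 1 and 0.268% without KO mouse 4, against 10.1%. Without WT mouse 3 the share at 12h was 24%, against 13.1% with all libraries. The members called in all 10 of these fits were Iigp1, Igtp, Irgm1, Gbp3 and Ifi44 at 0h and Iigp1, Gbp3, Usp18 and Ifi44 at 2h. Without WT mouse 3, whose 0h library stands apart, 14 members were called at 0h and 23 at 2h. The share of all genes called rose in that fit too, to 15.5% at 0h and 21.6% at 2h, against 7.93% and 11.8% with all libraries. In an edgeR fit of only the 10 libraries compared, 0 members were called at 0h, 2h or 6h, while 20, 32 and 9 had an unadjusted p under 0.05 there. Over all genes 8.92%, 21.1% and 32.5% had such a p in these fits, so that the members' number at 6h was under the background, and 0%, 0.0168% and 0.44% of all genes were called. DESeq2 on all libraries called 13, 21 and 6 for these times, against 11.1%, 16.1% and 15.8% of all genes. The members' share at 6h was thus under the background in DESeq2 too.

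At 0h every KO library lay above every WT library for 14 members, and at 2h for 23. Later there were 3 such members at 6h, then 2 (12h) and 2 (24h). Over all tested genes the share with every KO library above every WT library was 1.54%, 3.5%, 5.5%, 13% and 2.95% for 0h, 2h, 6h, 12h and 24h. Set against WT mice 2, 3 and 5 alone, the members whose KO libraries all lay higher numbered 14, 24, 10, 11 and 7 for 0h, 2h, 6h, 12h and 24h. The share of all genes that did so was 6.01%, 6.75%, 11.3%, 21.6% and 5.42% in the same order, so that the members' number at 12h was near the background.

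**Figure D1:**
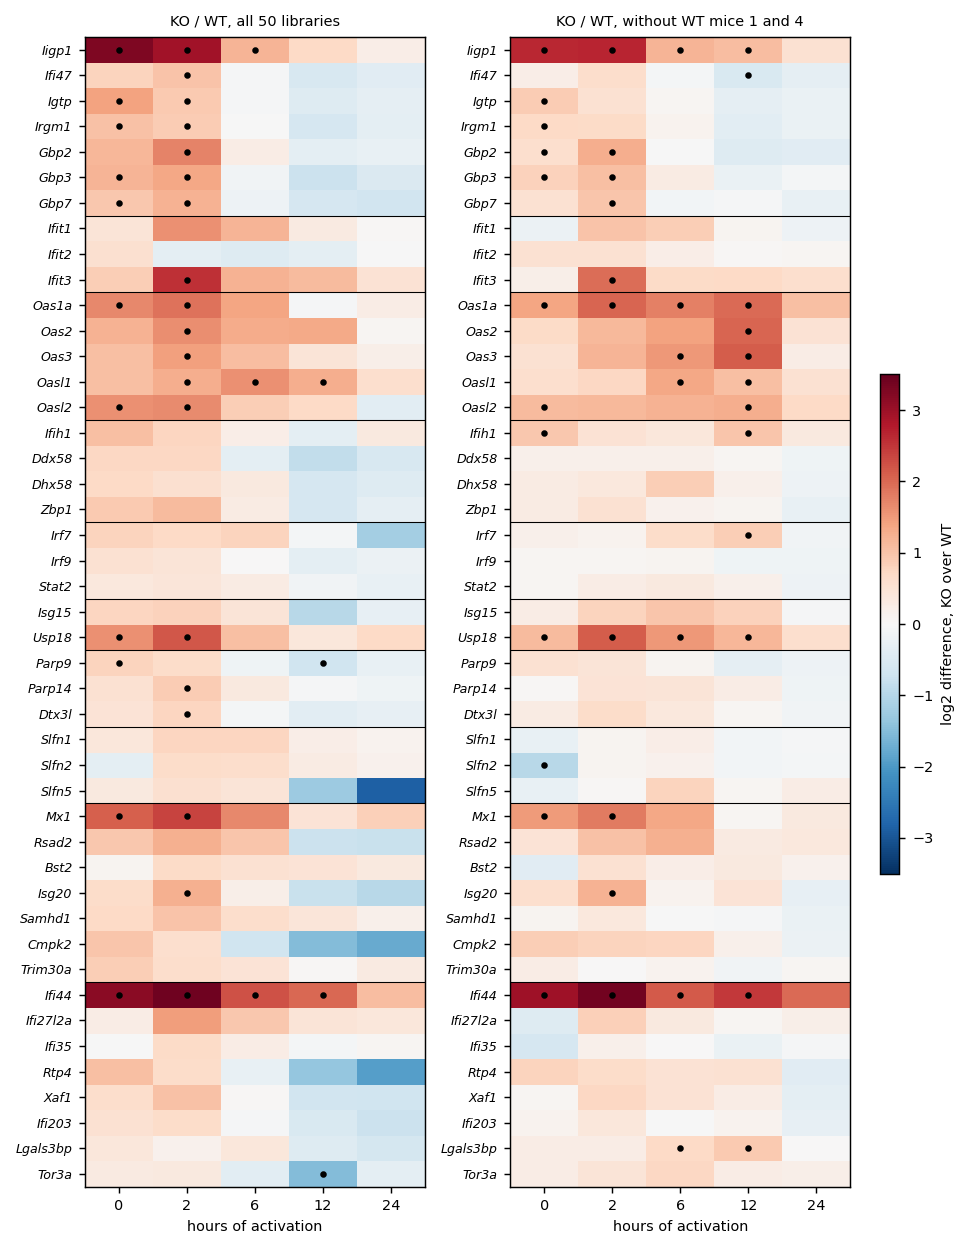
Log2 difference of KO over WT for each of the 45 members (rows, grouped by role) at 0h, 2h, 6h, 12h and 24h (columns), with all 50 libraries on the left and without WT mice 1 and 4 on the right. Red is higher in KO mice, blue lower, and a black dot marks an adjusted p under 0.05 in edgeR. With all libraries the dots number 11, 19, 3, 4 and 0 for 0h, 2h, 6h, 12h and 24h.

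The GTPases, which act on the vacuoles of intracellular pathogens, gave 5 of the 11 calls at 0h and 7 of the 19 at 2h. At 0h 5 of the 7 were called higher in KO mice (Iigp1, Igtp, Irgm1, Gbp3 and Gbp7), and at 2h all 7 were. Iigp1, an immunity-related GTPase, had 80.8, 74.1, 73.4, 43.9 and 79.1 CPM at 0h in KO mice 1 to 5, against 0.82, 8.12, 10, 2.18 and 15.9 CPM in WT mice 1 to 5. All KO libraries lay well above all WT libraries, and WT mice 1 and 4 were the lowest. The log2 difference was 3.26 ± 0.435 (SE; edgeR adjusted p = 1.14e-05, n = 5 mice each), and 2.63 ± 0.314 without WT mice 1 and 4 (edgeR adjusted p = 3.77e-06). At 2h Iigp1 had 129, 58.6, 51.6, 30.1 and 109 CPM in KO mice, against 6.43, 11.8, 12.1, 7.49 and 11.3 CPM in WT mice. The groups again did not overlap, with a log2 difference of 2.95 ± 0.429 (edgeR adjusted p = 9.69e-05) and of 2.67 ± 0.315 without the 2 WT mice (edgeR adjusted p = 2.86e-06). At 6h the levels were 317 to 465 CPM in KO mice and 79.7 to 253 CPM in WT mice, a log2 difference of 1.19 ± 0.4 (edgeR adjusted p = 0.0487) that was called in only 1 of the 10 fits leaving out a mouse, and 1.20 ± 0.284 without WT mice 1 and 4 (edgeR adjusted p = 0.0117).

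Igtp, another immunity-related GTPase, had 250, 296, 347, 240 and 356 CPM at 0h in KO mice, against 27.4, 161, 148, 53.2 and 175 CPM in WT mice. The groups did not overlap, and the log2 difference was 1.4 ± 0.299 (edgeR adjusted p = 0.00475) with all libraries and 0.89 ± 0.18 (edgeR adjusted p = 0.0014) without WT mice 1 and 4. Irgm1 had 158, 156, 156, 157 and 209 CPM at 0h in KO mice, against 42.8, 110, 69.8, 59.8 and 128 CPM in WT mice. KO mouse 5 was high among the KO libraries, and the highest WT library still lay under all of them. Its log2 difference was 1.03 ± 0.226 (edgeR adjusted p = 0.00626) and 0.70 ± 0.199 (edgeR adjusted p = 0.0115) without the 2 mice. At 2h both differences were called with all libraries (Igtp 0.91 ± 0.295, edgeR adjusted p = 0.0389; Irgm1 0.90 ± 0.225, edgeR adjusted p = 0.0123) and neither without WT mice 1 and 4 (edgeR adjusted p = 0.0749 and 0.0504).

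Among the guanylate-binding proteins, Gbp3 had 180, 111, 134, 96.5 and 217 CPM at 2h in KO mice, against 36.4, 65.9, 62.9, 46.3 and 80.2 CPM in WT mice. No KO library was as low as the highest WT library, and the log2 difference was 1.34 ± 0.285 (edgeR adjusted p = 0.0045), or 1.06 ± 0.187 without WT mice 1 and 4 (edgeR adjusted p = 0.00106). Gbp2 had 423, 239, 228, 190 and 411 CPM at 2h in KO mice, against 33.7, 138, 104, 45.2 and 126 CPM in WT mice. These groups did not overlap either, at 1.74 ± 0.392 (edgeR adjusted p = 0.00691) and 1.26 ± 0.2 (edgeR adjusted p = 0.000282) without the 2 mice; the call was lost without WT mouse 4 alone. Gbp7 had 213, 127, 134, 119 and 203 CPM at 2h in KO mice, against 43.8, 105, 47.3, 57.9 and 89 CPM in WT mice. Its groups lay apart by little, at 1.22 ± 0.313 (edgeR adjusted p = 0.0145) and 0.96 ± 0.244 (edgeR adjusted p = 0.0195). At 0h Gbp7 was called with all libraries (0.95 ± 0.311, edgeR adjusted p = 0.0485) and not without WT mice 1 and 4 (0.53 ± 0.239, edgeR adjusted p = 0.107). Ifi47 was called at 2h only with all libraries, at 1.00 ± 0.297 (edgeR adjusted p = 0.0266), and at 0.61 ± 0.187 (edgeR adjusted p = 0.0548) without WT mice 1 and 4.

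Ifi44, an interferon-induced cytoplasmic protein, was the member called at the most times. At 0h it had 9.65, 7.1, 20.4, 8.67 and 17.5 CPM in KO mice, against 0.991, 0.582, 1.93, 1.22 and 2.37 CPM in WT mice. At 2h it had 2.5, 1.51, 2.53, 1.43 and 3.12 CPM in KO mice, against 0.203, 0.285, 0, 0.238 and 0.233 CPM in WT mice. The lowest KO library exceeded the highest WT library at both times, and WT mice 1 and 4 were not set apart from the other WT mice. The log2 difference was 3.16 ± 0.55 at 0h (edgeR adjusted p = 0.000857) and 3.40 ± 0.581 at 2h (edgeR adjusted p = 0.000544). Without WT mice 1 and 4 the log2 difference was 2.98 ± 0.581 at 0h (edgeR adjusted p = 0.00106) and 3.39 ± 0.679 at 2h (edgeR adjusted p = 0.00339). It was 2.23 ± 0.531 at 6h (edgeR adjusted p = 0.012) and 2.02 ± 0.547 at 12h (edgeR adjusted p = 0.0148), or 2.14 ± 0.559 and 2.47 ± 0.641 without WT mice 1 and 4 (edgeR adjusted p = 0.0236 and 0.0053), and 1.08 ± 0.554 at 24h, which was not called (edgeR adjusted p = 0.768). The 12h call was lost without KO mouse 5, and the 6h call without KO mouse 1, KO mouse 4 or WT mouse 1.

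In the Isg15 system, Usp18, which removes Isg15 from proteins and dampens type I interferon signalling, was higher in KO mice at 0h and 2h, and Isg15 itself was not called. Usp18 had 48.6, 24, 42.6, 25.7 and 54.7 CPM at 2h in KO mice, against 7.3, 8.1, 5.02, 9.73 and 12.8 CPM in WT mice. All KO libraries were higher, at a log2 difference of 2.18 ± 0.423 (edgeR adjusted p = 0.00188), and at 2.13 ± 0.418 without WT mice 1 and 4 (edgeR adjusted p = 0.003). At 0h Usp18 had 72.3 to 114 CPM in KO mice and 9.09 to 56.2 CPM in WT mice, a log2 difference of 1.59 ± 0.413 (edgeR adjusted p = 0.0179) and of 1.10 ± 0.39 (edgeR adjusted p = 0.0403) without the 2 mice. Isg15, a ubiquitin-like modifier, had a log2 difference of 0.75 ± 0.494 at 0h (edgeR adjusted p = 0.327), where WT mouse 3 at 53.3 CPM lay inside the KO range of 29.3 to 59.3 CPM.

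The Oas family, which senses double-stranded RNA, was higher in KO mice for 2 of 5 members at 0h (Oas1a and Oasl2) and for all 5 at 2h. The log2 difference at 0h was 1.67 ± 0.515 for Oas1a (edgeR adjusted p = 0.0401) and 1.61 ± 0.496 for Oasl2 (edgeR adjusted p = 0.0398), or 1.39 ± 0.437 and 1.12 ± 0.388 without WT mice 1 and 4 (edgeR adjusted p = 0.0216 and 0.0357). Oas1a had 15.2, 10.3, 16.1, 10 and 25.2 CPM at 2h in KO mice, against 4.77, 3.78, 1.28, 5.31 and 5.49 CPM in WT mice. The groups did not overlap, and the log2 difference of 1.89 ± 0.521 (edgeR adjusted p = 0.0198) was 2.05 ± 0.464 without WT mice 1 and 4 (edgeR adjusted p = 0.00868). The 2h calls of Oas2, Oas3, Oasl1 and Oasl2 (log2 differences of 1.63, 1.44, 1.27 and 1.66) were each lost without WT mice 1 and 4. Oasl1 was also higher at 6h, with 8.46, 5.98, 8.56, 9.26 and 23.1 CPM in KO mice, against 1.36, 4.11, 3.77, 3.93 and 5.09 CPM in WT mice. All KO libraries lay higher, KO mouse 5 by far, at 1.60 ± 0.422 (edgeR adjusted p = 0.0194) and 1.34 ± 0.333 without the 2 WT mice (edgeR adjusted p = 0.0171). At 12h only Oasl1 was called with all libraries (1.26 ± 0.427, edgeR adjusted p = 0.0448; limma-voom with the mouse as a random effect, adjusted p = 0.146), while all 5 members of the family were called higher without WT mice 1 and 4, led by Oas3 at 2.11 ± 0.388 (edgeR adjusted p = 0.000204). Oas3 at 12h had 19.3, 19.8, 19.5, 18.9 and 45.8 CPM in KO mice, against 41.2, 6.31, 6.16, 30.8 and 5.15 CPM in WT mice. WT mice 1 and 4 were thus above most KO libraries there, and the other WT mice below all of them.

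Mx1, an interferon-induced GTPase, had 54.6, 42.5, 37.6, 53.3 and 72.2 CPM at 0h in KO mice, against 0.649, 18.6, 12.7, 4.73 and 24 CPM in WT mice. Every KO library lay higher, at a log2 difference of 2.10 ± 0.614 (edgeR adjusted p = 0.0316), and at 1.49 ± 0.417 without WT mice 1 and 4 (edgeR adjusted p = 0.0108). At 2h the difference was 2.37 ± 0.633 (edgeR adjusted p = 0.017), and 1.82 ± 0.453 without these mice (edgeR adjusted p = 0.0173). Of the other antiviral effectors, Isg20, an exonuclease, was called at 2h (1.24 ± 0.348, edgeR adjusted p = 0.0217), and at 1.22 ± 0.277 without WT mice 1 and 4 (edgeR adjusted p = 0.00868). Rsad2, Bst2, Samhd1, Cmpk2 and Trim30a were called at none of the 5 times. In the Ifit family, which binds viral RNA, Ifit3 was called at 2h. It had 19.5, 9.48, 16.3, 13.9 and 32.8 CPM in KO mice at that time, against 0.575, 5.45, 3.31, 1.46 and 4.94 CPM in WT mice. The groups did not overlap, at 2.55 ± 0.644 (edgeR adjusted p = 0.0128) and 1.96 ± 0.407 without the 2 mice (edgeR adjusted p = 0.00445). Ifit1 and Ifit2 were not called at any time.

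The members outside these families gave few calls. The sensors Ifih1, Ddx58, Dhx58 and Zbp1 and the transcription factors Irf7, Irf9 and Stat2 had 0 calls at any time with all libraries. Their log2 differences at 0h ran from 0.38 for Stat2 to 1.05 for Ifih1, which senses long double-stranded RNA. Irf9 shows how far WT mice 1 and 4 carried such values: at 0h it had 179 to 195 CPM in KO mice, while WT mice 1 and 4 had 50.2 and 69.4 CPM and the remaining WT mice 168 to 191 CPM. Its log2 difference was 0.52 with all libraries and 0.07 without these mice. Parp9, an ADP-ribosyltransferase, was higher at 0h (0.78 ± 0.225, edgeR adjusted p = 0.029), while its partner Dtx3l (0.76 ± 0.229, edgeR adjusted p = 0.0284) and Parp14 (0.89 ± 0.281, edgeR adjusted p = 0.0358) were higher at 2h, and these calls were lost without WT mice 1 and 4. The Schlafens, which restrain T cell growth and viral translation, had 0 calls with all libraries. Slfn2 had 252 to 421 CPM at 0h in KO mice, and 40.7, 305, 1170, 86.4 and 349 CPM in WT mice 1 to 5. WT mouse 3 was far above all other libraries, and without WT mice 1 and 4 the log2 difference of -0.97 ± 0.236 was called (edgeR adjusted p = 0.00478).

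At 12h Tor3a and Parp9 were called lower in KO mice. Of the 4 calls at 12h only that of Ifi44 held in limma-voom with the mouse as a random effect (adjusted p = 0.0326), and those of Oasl1, Parp9 and Tor3a did not (limma-voom adjusted p = 0.146, 0.0626 and 0.191). Tor3a, a torsin of the endoplasmic reticulum, had 4.97, 5.65, 5.82, 5.35 and 9.33 CPM in KO mice, against 39.4, 6.1, 4.25, 33.3 and 5.69 CPM in WT mice. WT mice 1 and 4 alone were high, WT mice 2 and 5 lay in the KO range and WT mouse 3 lay just below it. The log2 difference of -1.51 ± 0.431 (edgeR adjusted p = 0.0199) was 0.26 ± 0.241 without WT mice 1 and 4 (edgeR adjusted p = 0.465), so its sign turned. Parp9 was lower by a log2 difference of -0.70 ± 0.225 (edgeR adjusted p = 0.0352), and of -0.31 ± 0.208 without WT mice 1 and 4, where the call was lost (edgeR adjusted p = 0.305). Several further members had the same layout late, such as Slfn5 at 24h with 1.25 to 1.74 CPM in KO mice, and with 40.3, 1.15, 1.4, 9.44 and 1.19 CPM in WT mice. At 24h 7 members had an unadjusted p under 0.05 in edgeR, as did 6.89% of all genes, and 0 an adjusted one. DESeq2 called 2 lower in KO mice at 24h, Slfn5 and Rtp4, and 1.23% of all genes in either direction.

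**Figure D2:**
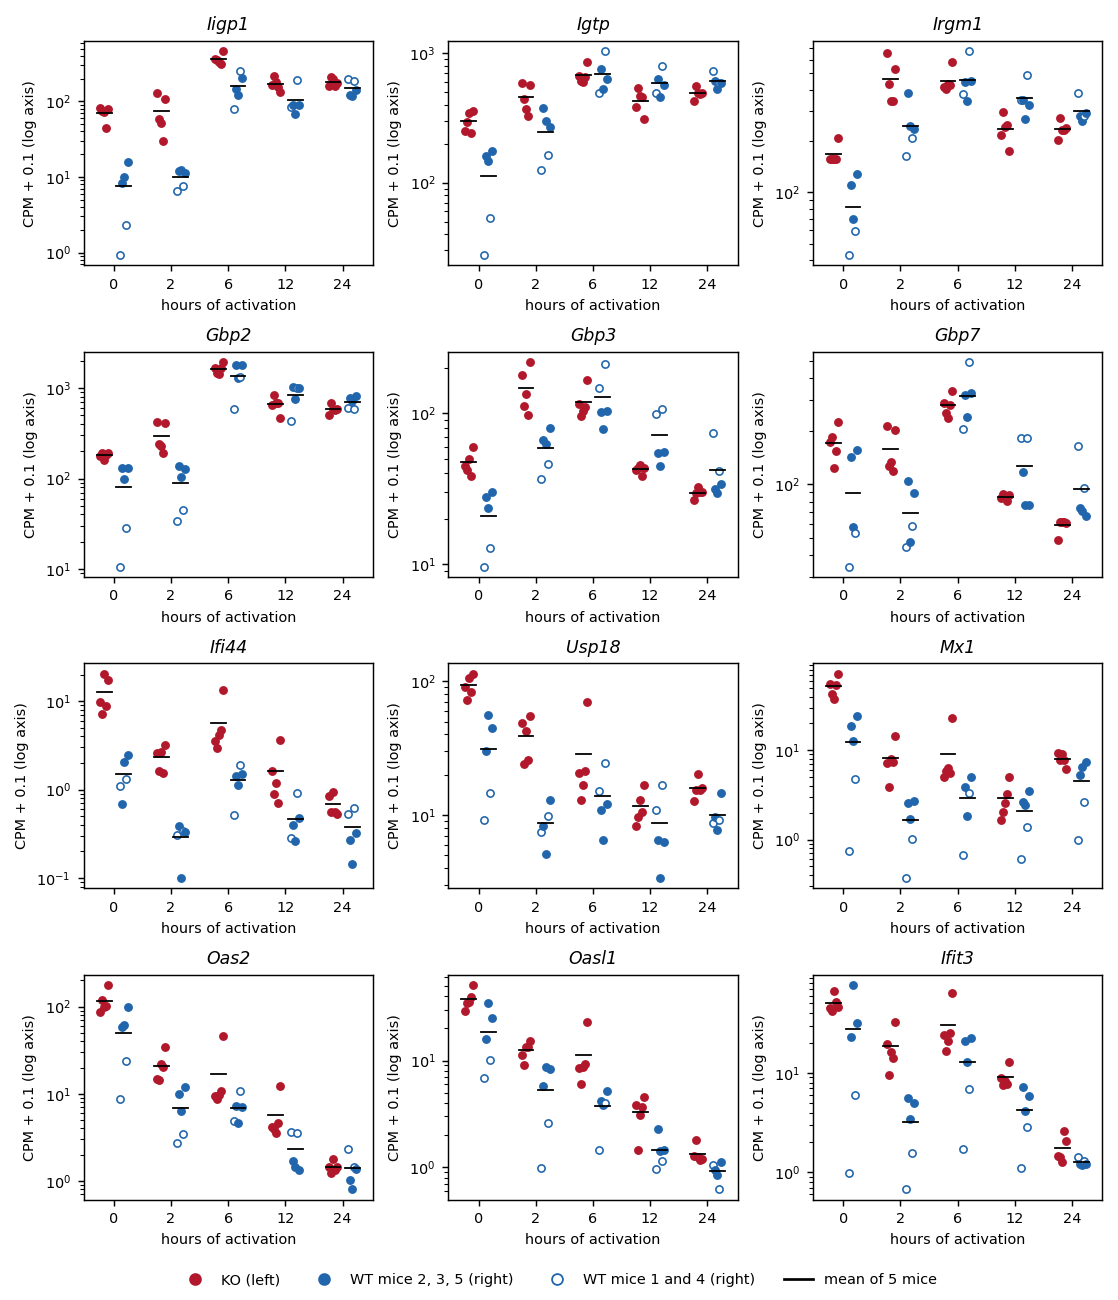
Level of 12 members in each library (CPM + 0.1, log axis) against hours of activation, with KO mice left (red) and WT mice right (blue) at each time. Open blue circles are WT mice 1 and 4, and black lines are means of 5 mice. For Iigp1 and Ifi44 all KO points lie above all WT points at 0h and 2h.

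To count each mouse once, log2 levels were also averaged over the 5 times of a mouse and the 10 means were compared with limma. By this test 3 members were higher in KO mice, Ifi44 by 2.21 ± 0.318 (limma adjusted p = 0.0254), Iigp1 by 1.79 ± 0.209 (limma adjusted p = 0.0152) and Usp18 by 1.24 ± 0.211 (limma adjusted p = 0.0433), and 0 were lower. Over all genes 0.429% were called. When WT mice 1 and 4 were left out, the members called numbered 6, all higher in KO mice (Iigp1, Ifi44, Usp18, Oas1a, Oas3 and Oasl1), against 3.72% of all genes. Leaving out KO mouse 1, 3, 4 or 5 left 0 calls, and leaving out WT mouse 2 left 1. The share of all genes called in these fits is not given here. Whether the members or all genes lost their calls thus cannot be told.

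The mean log2 level over the 7 GTPases gives the course in single libraries. At 0h it was 7.22, 7.29, 7.25, 7.04 and 7.52 in KO mice 1 to 5, against 3.98, 6.34, 6.08, 4.82 and 6.59 in WT mice. At 6h it was 8.82, 8.71, 8.72, 8.8 and 9.21 in KO mice, against 8.17, 8.74, 8.33, 9.2 and 8.78 in WT mice. The groups were apart at 0h and overlapped at 6h, and at 24h the KO libraries (7.33 to 7.71) overlapped the WT libraries (7.61 to 8.24), of which 3 lay above all KO libraries. Over the other 38 members the mean log2 level was 6.42 to 6.84 in KO mice and 3.83 to 6.21 in WT mice at 0h, and 3.53 to 3.81 in KO mice and 3.47 to 4.32 in WT mice at 24h. By this mean log2 level both groups of genes were apart by genotype at 0h and overlapped at 24h. For the other 38 members, WT mice 2, 3 and 5 lay close to the KO mice at 0h, at 5.94, 6.21 and 6.21. Their summed CPM overlapped at 0h, with 6090 CPM in WT mouse 3 against 4710 to 5770 CPM in KO mice. Over the other 38 members the mean log2 level was lower at 24h than at 0h in 9 of the 10 mice, and WT mouse 1 went the other way, with 4.32 at 24h against 3.83 at 0h.

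**Figure D3:**
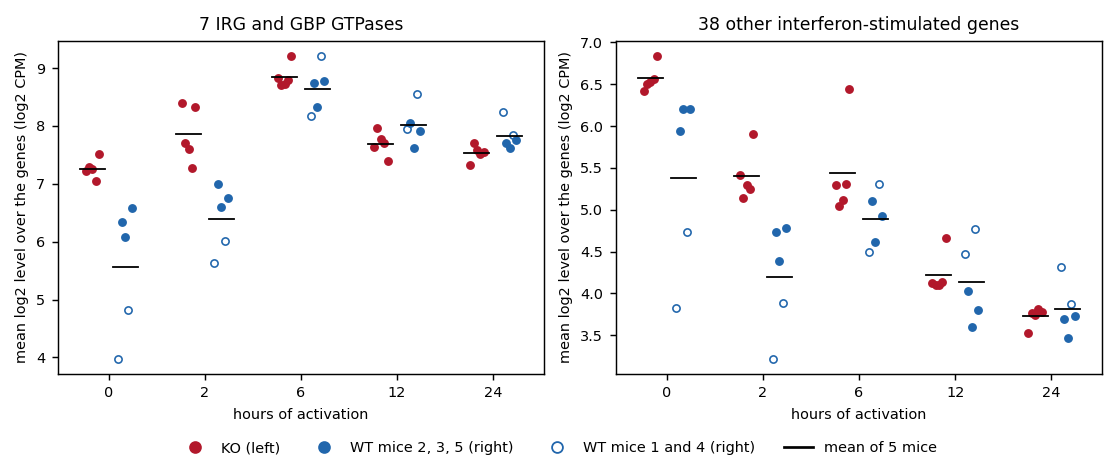
Mean log2 level (log2 CPM) over the 7 GTPases (left) and the 38 other members (right) in each library against hours of activation, KO mice left and WT mice right at each time. Open blue circles are WT mice 1 and 4, and black lines are means of 5 mice. By the means of 5 mice, the GTPases peak at 6h in both genotypes, while the other members lie lowest at 24h.

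The difference between the genotypes' courses was tested itself, as the change from 0h in KO mice minus that in WT mice. This test and the comparison of genotypes at 0h use the same 0h libraries, so that a high KO level at 0h enters both. Over the 4 later times together 10 members passed the edgeR F-test (Gbp3, Iigp1, Irgm1, Gbp7, Parp9, Igtp, Isg20, Gbp2, Ifi47 and Rtp4), against 5.09% of all genes, and all 7 GTPases were among them. When WT mice 1 and 4 were left out, 10 members passed, against 16.4% of all genes, and they were the 7 GTPases, Oas3, Isg20 and Lgals3bp. The number was 3 without KO mouse 1, 4 without WT mouse 4, 5 without KO mouse 3, 6 without KO mouse 4 or KO mouse 5, and 19 without WT mouse 3. The share of all genes that passed in these fits is not given here. These numbers therefore cannot tell a shift of the members from a shift over all genes.

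At 12h the course of 8 members was lower in KO mice than in WT mice and that of 0 was higher, against 1.96% of all genes lower and 5.54% higher. They were Iigp1 (-2.56 ± 0.572, edgeR adjusted p = 0.00362), Ifi47 (-1.32), Igtp (-1.85), Irgm1 (-1.62), Gbp3 (-1.95), Gbp7 (-1.54), Parp9 (-1.48) and Rtp4 (-2.42). Scaled by library totals, where the median over all genes was -0.18, 13 members were lower and 0 higher. Iigp1, Igtp, Irgm1, Gbp3 and Parp9 kept this call in each of the 10 fits that leave out a mouse. Without WT mice 1 and 4 the course of 7 was lower (Iigp1 at -1.54, Ifi47, Igtp, Irgm1, Gbp2, Gbp3 and Parp9) and that of Oas3 (1.58) and Lgals3bp (0.64) was higher, against 7.26% of all genes lower and 13.3% higher.

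After activation most interferon-stimulated genes fell in both genotypes, while GTPases rose. In KO mice 19 members fell and 2 rose by 2h, 20 fell and 7 rose by 6h, 35 fell and 3 rose by 12h, and 35 fell and 3 rose by 24h. In WT mice 21 fell and 3 rose by 2h, 12 fell and 8 rose by 6h, 25 fell and 6 rose by 12h, and 27 fell and 6 rose by 24h. Over all genes in KO mice, the share that fell was 19.6%, 22.4%, 25% and 28% for 2h, 6h, 12h and 24h, and the share that rose was 20.3%, 26.8%, 27.8% and 30.7%. In WT mice the share of all genes that fell was 16.2%, 19.7%, 20.2% and 24.2% for 2h, 6h, 12h and 24h, and the share that rose was 14%, 20.2%, 19.3% and 19.9%. The share of members that fell thus exceeded the background at 2h, 12h and 24h in both genotypes. The later times of a genotype share its 0h libraries, so that these changes are not independent of each other.

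In WT mice without mice 1 and 4, 30 members fell and 3 rose by 2h, 28 fell and 8 rose by 6h, 36 fell and 6 rose by 12h, and 33 fell and 4 rose by 24h. All genes then fell in 27.7%, 31.2%, 32.2% and 32% for 2h, 6h, 12h and 24h, and rose in 21.9%, 28.6%, 28% and 32.5%. By 24h 27 members fell in both genotypes and 3 rose in both with all libraries. The share of all genes that did so in both is not given here. It can be no larger than the share in WT mice alone, 24.2% for falls and 19.9% for rises.

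The deepest falls by 24h, averaged over the genotypes among members called in both, were those of Oas2, Ifit3 and Oasl1. This order holds with all libraries, since Slfn5 changed by -6.25 ± 0.838 in KO mice (edgeR adjusted p = 7.2e-08) and by -3.05 ± 0.714 in WT mice (edgeR adjusted p = 0.000629), but by -6.76 ± 0.385 in WT mice without mice 1 and 4, more than any of the 3 there (edgeR adjusted p = 1.96e-16). Oas2, an oligoadenylate synthetase, had 1.35, 1.14, 1.7, 1.25 and 1.35 CPM at 24h in KO mice, against 85.6, 119, 98.8, 102 and 177 CPM at 0h. In WT mice it had 2.23, 0.914, 0.7, 1.33 and 1.28 CPM at 24h, against 8.58, 57.6, 61.8, 23.8 and 99.6 CPM at 0h. The 0h and 24h libraries did not overlap in either genotype. The log2 change was -6.42 ± 0.602 in KO mice (edgeR adjusted p = 4.85e-11) and -5.28 ± 0.573 in WT mice (edgeR adjusted p = 2.31e-09), or -6.24 ± 0.604 in WT mice without mice 1 and 4. Ifit3 had 1.35, 1.32, 1.16, 2.5 and 1.98 CPM at 24h in KO mice, against 44.5, 41.5, 66, 51.6 and 46.5 CPM at 0h. Its log2 change was -4.91 ± 0.716 in KO mice (edgeR adjusted p = 3.2e-07) and -4.56 ± 0.708 in WT mice (edgeR adjusted p = 2.3e-06), or -5.30 ± 0.507 without mice 1 and 4. WT mouse 1 had 0.888 CPM already at 0h. Oasl1 had 1.17, 1.69, 1.16, 1.08 and 1.11 CPM at 24h in KO mice, against 29.2, 34.2, 35.2, 39.1 and 50.9 CPM at 0h. It fell by 4.92 on the log2 scale in KO mice (SE 0.486, edgeR adjusted p = 1.7e-10) and by 4.48 in WT mice (SE 0.48, edgeR adjusted p = 1.72e-09), or by 4.84 without mice 1 and 4.

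By role, all 5 Oas genes, all 3 transcription factors (Irf7, Irf9 and Stat2), Isg15 and Usp18 fell by 24h in both genotypes. Irf7, which amplifies type I interferon production, had 3 to 5.28 CPM at 24h in KO mice, against 177 to 236 CPM at 0h, a log2 change of -5.65 ± 0.599 (edgeR adjusted p = 7.62e-10). In WT mice its log2 change was -3.71 ± 0.545 (edgeR adjusted p = 8.73e-07), or -5.34 ± 0.335 without mice 1 and 4, with 22.4 and 10.2 CPM left at 24h in mice 1 and 4 and 3.33 to 5.58 CPM in mice 2, 3 and 5. The Ifit genes fell by 24h in 3 of 3 cases in KO mice and in 2 of 3 in WT mice, and the sensors in 4 of 4 and 2 of 4. Of the antiviral effectors 5 of 7 fell in each genotype. Bst2, which tethers virus particles at the cell surface, was not called at 24h in either (-0.05 ± 0.324 in KO mice, -0.31 ± 0.325 in WT mice). Of the 38 members other than the GTPases, 33 fell and 0 rose in KO mice, with a median log2 change of -2.81, and 27 fell and 0 rose in WT mice, with a median of -1.69. In WT mice without mice 1 and 4, 32 fell and 0 rose, with a median of -2.35. Slfn2, which keeps T cells quiescent in mice, went the other way in KO mice, where it rose by 6h (1.30 ± 0.496, edgeR adjusted p = 0.0274) and 12h (1.36 ± 0.497, edgeR adjusted p = 0.0199).

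**Figure D4:**
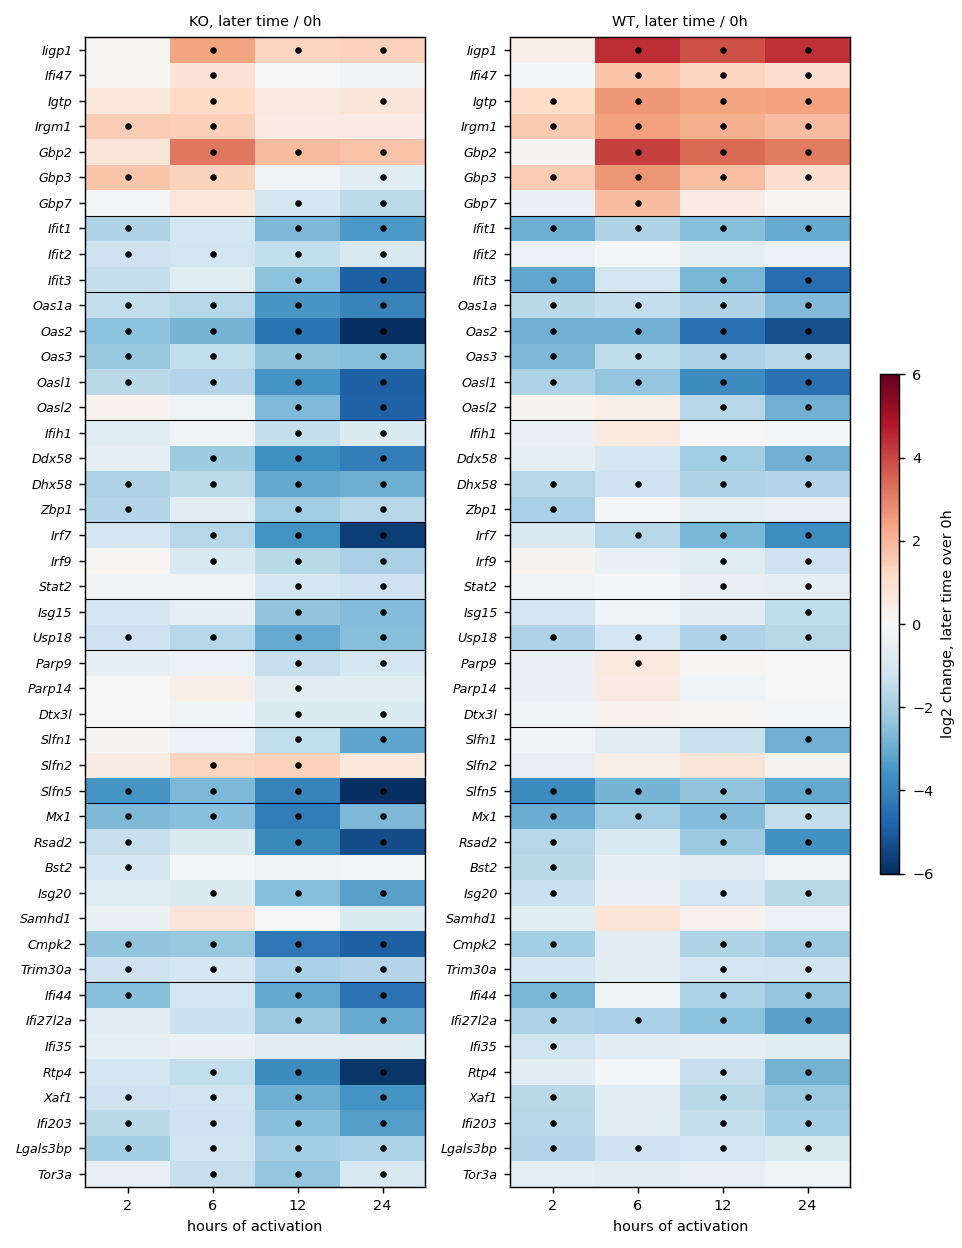
Log2 change from 0h at 2h, 6h, 12h and 24h (columns) for each of the 45 members (rows, grouped by role), KO mice left and WT mice right. Red is higher than at 0h, blue lower, and a black dot marks an adjusted p under 0.05 in edgeR. At 24h 35 members fell and 3 rose in KO mice, and 27 fell and 6 rose in WT mice.

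The mean log2 level over the GTPases peaked at 6h in both genotypes, but not every GTPase did so in KO mice. Gbp3 in KO mice averaged 148 CPM after 2 hours but only 118 CPM after 6 hours. Irgm1 in KO mice hardly moved between these times, averaging 459 and 452 CPM. In KO mice 6 of the 7 GTPases were called higher at 6h than at 0h, with a median log2 change of 1.32. In WT mice all 7 were, with a median of 2.61 (1.97 without mice 1 and 4). Gbp2 had 1650, 1470, 1440, 1660 and 1930 CPM at 6h in KO mice, against 178, 190, 161, 181 and 190 CPM at 0h. In WT mice it had 584, 1790, 1280, 1330 and 1810 CPM at 6h, against 10.5, 132, 99.9, 28.1 and 130 CPM at 0h. At 6h the genotypes overlapped, and WT mouse 1 was lowest. The 6h and 0h libraries did not overlap in either genotype. The log2 change of Gbp2 was 3.18 ± 0.414 in KO mice (edgeR adjusted p = 4.72e-08) and 4.09 ± 0.431 in WT mice (edgeR adjusted p = 9.81e-10), or 3.74 ± 0.237 without WT mice 1 and 4. Iigp1 rose by 6h in KO mice by a log2 change of 2.39 ± 0.415 (edgeR adjusted p = 8.05e-06), and in WT mice by 4.45 ± 0.459 (edgeR adjusted p = 5.86e-10), or 3.78 ± 0.345 without mice 1 and 4. Irgm1 and Gbp3 were called higher by 2h already, Irgm1 by 1.46 ± 0.228 in KO mice (edgeR adjusted p = 1.83e-06) and 1.58 ± 0.229 in WT mice (edgeR adjusted p = 9.87e-07). At 24h 3 GTPases were above and 2 below their 0h level in KO mice, with a median log2 change of 0.49. In WT mice 6 were above and 0 below, with a median of 1.86 (4 above and 1 below, median 1.43, without mice 1 and 4). Gbp2 had 505, 688, 587, 577 and 581 CPM at 24h in KO mice, against 609, 787, 726, 586 and 810 CPM in WT mice, above every 0h library of either genotype. Its change by 24h was 1.71 ± 0.391 in KO mice (edgeR adjusted p = 0.000286) and 3.14 ± 0.413 in WT mice (edgeR adjusted p = 1.22e-07), or 2.68 ± 0.226 without WT mice 1 and 4. Iigp1 had 158 to 211 CPM at 24h in KO mice, a change of 1.36 ± 0.402 (edgeR adjusted p = 0.00387), and 117 to 198 CPM in WT mice, a change of 4.37 ± 0.457 (edgeR adjusted p = 1.14e-09), or 3.47 ± 0.341 without mice 1 and 4. The genotypes overlapped for both genes at 24h, so that the larger change in WT mice came with the lower 0h level. Igtp had 428 to 561 CPM at 24h in KO mice, a change of 0.72 ± 0.294 (edgeR adjusted p = 0.0338), and 529 to 727 CPM in WT mice, a change of 2.43 ± 0.309 (edgeR adjusted p = 5.91e-08), or 1.84 ± 0.201 without mice 1 and 4. The call of Igtp in KO mice was lost with RLE scaling (edgeR adjusted p = 0.0823), with library totals (edgeR adjusted p = 0.0969), in DESeq2 (adjusted p = 0.0722) and without KO mouse 1, 2, 3 or 4. Gbp3 in KO mice had 26.6 to 32.2 CPM at 24h against 38.6 to 60 CPM at 0h, and its libraries at these times did not overlap.

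The pathway around the members was described through lists of interferons, receptors, kinases, partner factors, negative regulators and adaptors. Of 10 interferon genes, 9 type I and type III genes were not tested, since their counts were at or near 0, with group means of at most 0.0354 CPM. Ifng, the gene of interferon gamma, was higher in KO mice at 2h, 6h and 12h. At 6h it had 1920, 334, 676, 1070 and 1450 CPM in KO mice, against 10.4, 129, 106, 41.3 and 131 CPM in WT mice. Every KO library lay above every WT library, and both groups were widely spread. The log2 difference was 3.71 ± 0.719 at 6h (edgeR adjusted p = 0.00422) and 3.14 ± 0.607 without WT mice 1 and 4 (edgeR adjusted p = 0.00232). At 2h it was 2.28 ± 0.68 (edgeR adjusted p = 0.0269), and 1.75 ± 0.569 without these mice, where the call was lost (edgeR adjusted p = 0.0727). At 12h it was 3.06 ± 0.698 (edgeR adjusted p = 0.00537), or 2.66 ± 0.591 without these mice (edgeR adjusted p = 0.00136), and at 24h 1.20 ± 0.654 (edgeR adjusted p = 0.834). At 0h, before activation, Ifng had 5.26, 2.91, 0.0723, 1.77 and 8.41 CPM in KO mice, against 0.205, 1.49, 1.73, 0.43 and 2.37 CPM in WT mice. These groups overlapped, KO mouse 3 was the lowest of all 10 libraries, and the difference of 1.63 ± 0.731 was not called (edgeR adjusted p = 0.143). The largest genotype difference of Ifng was at 6h, and that of the members called at 0h was at 0h or 2h. The part of interferon gamma in the members' differences was not tested.

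Of the 5 receptor chains tested, 2 were called higher in KO mice at 0h (2.34% of all genes), Ifnar2 by 0.49 ± 0.144 (edgeR adjusted p = 0.0316) and Il10rb, a chain shared with type III interferon and interleukin 10 receptors, by 1.08 ± 0.347 (edgeR adjusted p = 0.0464). Without WT mice 1 and 4 the difference was 0.27 ± 0.112 for Ifnar2, which was not called (edgeR adjusted p = 0.0782), and 0.56 ± 0.188 for Il10rb (edgeR adjusted p = 0.0309). Ifngr1, the ligand-binding chain for interferon gamma, had 1280, 1050, 1280, 1030 and 1160 CPM at 2h in KO mice, against 86.7, 827, 720, 245 and 824 CPM in WT mice. WT mice 1 and 4 were lowest and the groups did not overlap, at 1.10 ± 0.33 (edgeR adjusted p = 0.0278), or 0.53 ± 0.192 without these mice (edgeR adjusted p = 0.107). By 24h all 5 receptor chains fell in KO mice and 3 of 5 in WT mice, and Ifngr1 fell in both (-2.71 ± 0.348 in KO mice, edgeR adjusted p = 3.16e-08; -1.89 ± 0.338 in WT mice, edgeR adjusted p = 2.13e-05). Of all genes 28% fell by 24h in KO mice and 24.2% in WT mice. Of the 3 kinases only Tyk2 was called between genotypes, higher in KO mice at 6h (0.76 ± 0.232, edgeR adjusted p = 0.0327) and 12h (0.69 ± 0.232, edgeR adjusted p = 0.0417). These calls held without WT mice 1 and 4, at 0.46 ± 0.12 (edgeR adjusted p = 0.0246) and 0.68 ± 0.121 (edgeR adjusted p = 0.000151). With all libraries 2.53% of all genes were called higher at 6h and 5.54% at 12h.

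Of 7 partner transcription factors, 1 was called higher in KO mice at 0h, and 2, 4, 1 and 0 for 2h, 6h, 12h and 24h, and 0 were called lower. The share of all genes called higher was 2.34%, 2.9%, 2.53%, 5.54% and 0.00752% for 0h, 2h, 6h, 12h and 24h. Counts for this list without WT mice 1 and 4 are not given here. Irf1, a factor induced by interferon gamma, had 366 to 412 CPM at 0h in KO mice and 79 to 329 CPM in WT mice, a log2 difference of 0.89 ± 0.258 (edgeR adjusted p = 0.0309) and of 0.44 ± 0.158 without the 2 mice (edgeR adjusted p = 0.0421). Its groups did not overlap at 0h, and it was not called at any later time.

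Irf8, which is induced by T cell activation, was called between genotypes at 6h and 12h. It had 848, 807, 879, 773 and 735 CPM at 6h in KO mice, against 66, 489, 506, 254 and 421 CPM in WT mice. The groups did not overlap, at 1.22 ± 0.302 (edgeR adjusted p = 0.015) with all libraries and 0.76 ± 0.185 (edgeR adjusted p = 0.0149) without WT mice 1 and 4. At 0h the difference was 0.71 ± 0.303 (edgeR adjusted p = 0.124), and 1.12 ± 0.198 without these mice, where it was called (edgeR adjusted p = 0.000448). Among the 7 negative regulators 1 was called higher at 2h, and 1 higher and 1 lower at 12h. Of all genes 2.9% were called higher at 2h, and 5.54% higher and 7.55% lower at 12h. Counts for these regulators without WT mice 1 and 4 are not given here either. Of 10 adaptors and sensors outside the set only Ticam1 was called, at 2h (0.51 ± 0.174, edgeR adjusted p = 0.0468), a call that was lost without WT mice 1 and 4 (edgeR adjusted p = 0.321).

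**Figure D5:**
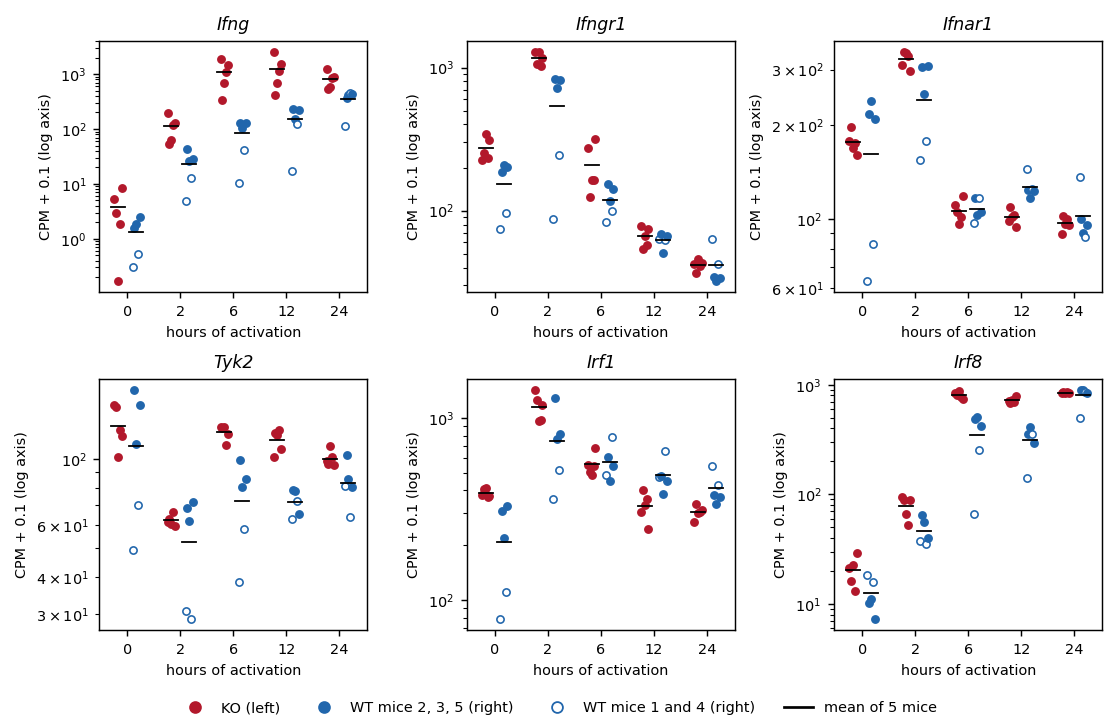
Level of 6 pathway genes in each library (CPM + 0.1, log axis) against hours of activation, with KO mice left (red) and WT mice right (blue) at each time. Open blue circles are WT mice 1 and 4, and black lines are means of 5 mice. Irf1 is apart by genotype at 0h, and Ifng at 2h, 6h, 12h and 24h.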

How the data were processed

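Per the labels, mRNA of bead-isolated splenic CD8+ T cells was made into stranded TruSeq libraries. Per the submitters' processing notes, CASAVA 1.8.2, STAR 2.4, featureCounts 1.4.6 and GRCm38 were used. Their settings, the strand setting among them, are not given in the sources used here. The authors deposited raw counts per Ensembl gene for 50 libraries. Symbols were matched for 21583 identifiers and not for 64.

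Counts were fitted as deposited with edgeR 4.0.16 (R 4.3.3): TMM scaling, filterByExpr (minimum count 10, total 15, smallest group 5), robust quasi-likelihood over 10 groups, 40 residual degrees of freedom and Benjamini-Hochberg adjustment over 13294 genes. CPM are scaled by TMM library sizes. Mouse means were compared with limma 3.58.1 (prior count 2). The scripts were tested on simulated data. Since a mouse gave all 5 times, the shared fit treats libraries of a mouse as independent, and p-values between genotypes may be too small. The pairing of times comes from the labels, and libraries of a mouse deviated together (mean correlation 0.212 to 0.356 in KO mice, 0.415 to 0.638 in WT mice). The fit with the mouse as a block changed 1 member's call into none, Stat2 in WT mice at 12h, and added others without moving a count by over 1.5 times. Counting intervals were not computed, because the spread between mice is given.

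The members and lists were chosen with earlier results of these data known. Values of every library are given for members called between genotypes at 2 or more times and for the largest changes by 24h, and others by role. Alternatives were DESeq2 1.42.0, other scalings, no filter, leaving out mice, limma-voom with the mouse as a random effect and fits of only the libraries compared. Reads of near-identical paralogs (the Ifit, Oas, Gbp and immunity-related GTPase families, Ifi203, Ifi27l2a) may be split or lost in counting. The check of the targeted gene and some genes of the lists are not reported here.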

Additional observations from a re-analysis of the deposited data

Results flagged for a closer look

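Single libraries stood far from the others of their group in 15 of 140 groups checked, by Dixon's criterion for groups of 5. Chance gives about 1 in 20 for independent groups. The groups checked share the same 50 libraries, and the mean levels hold the same genes, so 15 of 140 cannot be set against that rate. In 8 of the 15 flagged groups the library was that of KO mouse 5, and each time it was high. At 6h KO mouse 5 had 22.7 CPM of Mx1 (other KO mice 4.95 to 6.2), 45.8 CPM of Oas2 (8.52 to 10.7) and 582 CPM of Irgm1 (405 to 430). Its mean log2 level at 6h was 9.21 over the GTPases (8.71 to 8.82) and 6.44 over the other 38 members (5.04 to 5.31). At 12h it had 12.2 CPM of Oas2 (3.48 to 4.51) and a mean log2 level of 4.66 over the other members (4.10 to 4.14), and at 0h 209 CPM of Irgm1 (156 to 158).

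Elsewhere, KO mouse 4 had 43.9 CPM of Iigp1 at 0h (other KO mice 73.4 to 80.8), and WT mouse 4 had 192 CPM of it at 12h (other WT mice 67.1 to 90.5). KO mouse 1 was low at 24h, with 48.6 CPM of Gbp7 (60.7 to 61.5) and a mean log2 level of 3.53 over the other members (3.74 to 3.81). KO mouse 2 had 1.69 CPM of Oasl1 at 24h (1.08 to 1.17), WT mouse 1 had 1.36 CPM of it at 6h (3.77 to 5.09), and WT mouse 3 had 0 CPM of Ifi44 at 2h (0.203 to 0.285).

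The time course differed between KO and WT mice for 10 members by edgeR's F-test over 4 interaction terms, with adjusted p-values of 0.00102 for Gbp3, 0.00116 for Iigp1, 0.00147 for Irgm1, 0.00602 for Gbp7, 0.0068 for Parp9, 0.00849 for Igtp, 0.0101 for Isg20, 0.029 for Gbp2, 0.0319 for Ifi47 and 0.0326 for Rtp4.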

How the results depend on the processing

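RLE scaling kept the counts of called members, over both directions, within 1.5 times, as did library totals in the comparisons of genotypes, times and mouse means and a prior count of 0.5 for mouse means. By direction, library totals gave 4 members lower in KO mice at 12h against 2, with 2 GTPases among them against 0, and members with a lower course numbering 2 at 6h against 1, 13 at 12h against 8 and 4 at 24h against 1. DESeq2 called 6 members between genotypes at 6h (15.8% of all genes) and 2 at 24h (1.23% of all genes). Limma-voom with the mouse as random effect called 25 at 0h (5.97% of all genes) and 1 at 12h (8.9% of all genes). The edgeR fit without a filter called 2 at 12h (6.45% of all genes). With only the 10 libraries compared, edgeR called 0 at 0h, 0 at 2h and 0 at 6h between genotypes, 36 for the 2h change in KO mice, and 4, 10 and 10 for the 2h, 6h and 12h changes in WT mice. Over all genes these fits called 0%, 0.0168% and 0.44% between genotypes and 57.4% for the 2h change in KO mice. For the WT changes they called 2.46%, 9.67% and 10.7% of all genes. Without WT mice 1 and 4 the counts were 10 at 2h, 7 at 6h and 12 at 12h between genotypes, 6 for mouse means, 35 for the 2h change in KO mice and 36 for the 6h change in WT mice, and Tor3a at 12h turned to 0.26. Of all genes 4.1%, 4.16% and 23% were then called between genotypes at 2h, 6h and 12h, and 3.72% for mouse means. The 2h change in KO mice was called for 57.6% and the 6h change in WT mice for 59.8% of all genes. The cause of these shifts was not tested.

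Leaving out 1 mouse at a time gave 5 to 15 members between genotypes at 0h, 4 to 23 at 2h, 0 to 4 at 6h, 1 to 10 at 12h and 0 to 1 at 24h, 0 to 3 for mouse means and 3 to 19 for the difference in course. Time changes gave 14 to 27 at 2h, 21 to 31 at 6h, 35 to 39 at 12h and 33 to 41 at 24h in KO mice, and 20 to 25, 14 to 27, 25 to 36 and 28 to 34 in WT mice. The shares of all genes called in these fits are not all given here, so these ranges are not set against a background. With the replicate block, time changes were called for 28, 33, 39 and 41 members in KO mice, for 27, 25, 32 and 34 in WT mice, and the difference in course for 13. Over all genes the block called 49.3%, 58.9%, 62% and 66.2% for 2h, 6h, 12h and 24h in KO mice. In WT mice it called 37.2%, 47.8%, 47.8% and 55% of all genes. The share of all genes for the difference in course is not given here. No paired analysis was possible for KO against WT, because the mice of the 2 genotypes share only a number. Depth limits the genes of low level: at 2h Ifi44 had at most 3.12 CPM in KO mice and 0.285 CPM in WT mice.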
